A study of Mus musculus with 25 samples.

Results

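The transcripts described here are those of 8 genes that turn prohormones into active peptides, among 30903 gene symbols measured in 25 single cells. They were taken by name: the convertase genes Pcsk1, Pcsk2 and Furin, the convertase-binding protein genes Pcsk1n and Scg5, the carboxypeptidase genes Cpe and Cpd, and Pam, the gene for the amidating enzyme. Each symbol stood on a single row of the deposited table, and all 8 were found. The tissue was the arcuate nucleus with the median eminence, a hypothalamic region, of adult male RIP-Cre mice of the (C57BL/6 x DBA)F2 strain, and GFP-positive cells were picked by hand after papain digestion. A rat insulin promoter directs Cre in these mice, and an AAV vector gave GFP only to cells in which Cre had removed a stop cassette, so the cells are those that this transgene marks and not one defined cell type. All cells came from a pool of 2 mice with an average age of 63 days and form 1 group. No labels tie a cell to a mouse, no control cells were used here, and cells are not replicates, so no p-value is given and every spread over cells is a description.

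Peptide hormones are made as long precursors that enter the regulated secretory pathway. In the trans-Golgi network and in maturing granules, the convertases encoded by Pcsk1 and Pcsk2 cut the precursor after paired basic residues, and carboxypeptidase E, the product of Cpe, trims those residues from the new end. The product of Pam then changes a terminal glycine into an amide, a step that peptides such as alpha-MSH and neuropeptide Y need for full activity. The proSAAS protein, encoded by Pcsk1n, inhibits the Pcsk1 product, while the Scg5 protein binds the Pcsk2 product and is needed for its maturation. Furin and carboxypeptidase D act mainly in the constitutive route, on receptors, growth factors and membrane proteases. In the arcuate nucleus this machinery is known for cutting pro-opiomelanocortin, the product of Pomc.

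The promoters of the convertase genes Pcsk1 and Pcsk2 and of the genes for their binding proteins are shown because these genes split into a pair found in some cells and a pair found in all. Each stretch runs from 250 bases before to 50 bases after a transcription start, as given by RefSeq for GRCm38.p6, and 7 of the 8 members had an entry. They lie at chr13:75089607-75089906 on the plus strand (Pcsk1), chr2:143545883-143546182 on the plus strand (Pcsk2), chrX:7919572-7919871 on the plus strand (Pcsk1n) and chr2:113829042-113829341 on the minus strand (Scg5). Capitals mark TGACG on either strand, the core of the cAMP response element.
Pcsk1: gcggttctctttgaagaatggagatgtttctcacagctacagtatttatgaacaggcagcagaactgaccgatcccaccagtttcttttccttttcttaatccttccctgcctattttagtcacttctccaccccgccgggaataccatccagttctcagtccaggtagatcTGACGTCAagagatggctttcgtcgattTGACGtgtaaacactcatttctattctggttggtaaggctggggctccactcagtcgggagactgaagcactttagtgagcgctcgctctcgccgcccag
Pcsk2: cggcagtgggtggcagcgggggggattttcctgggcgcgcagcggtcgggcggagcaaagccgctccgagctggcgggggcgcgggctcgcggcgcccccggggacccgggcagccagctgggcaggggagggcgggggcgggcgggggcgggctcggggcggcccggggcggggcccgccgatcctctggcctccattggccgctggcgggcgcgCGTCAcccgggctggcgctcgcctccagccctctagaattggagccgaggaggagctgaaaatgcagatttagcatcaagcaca
Pcsk1n: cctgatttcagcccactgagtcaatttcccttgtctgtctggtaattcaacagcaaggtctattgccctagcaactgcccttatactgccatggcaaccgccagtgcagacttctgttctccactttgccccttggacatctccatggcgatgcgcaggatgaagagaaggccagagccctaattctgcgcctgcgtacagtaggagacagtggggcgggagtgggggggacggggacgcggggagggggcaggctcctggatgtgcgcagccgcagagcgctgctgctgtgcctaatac
Scg5: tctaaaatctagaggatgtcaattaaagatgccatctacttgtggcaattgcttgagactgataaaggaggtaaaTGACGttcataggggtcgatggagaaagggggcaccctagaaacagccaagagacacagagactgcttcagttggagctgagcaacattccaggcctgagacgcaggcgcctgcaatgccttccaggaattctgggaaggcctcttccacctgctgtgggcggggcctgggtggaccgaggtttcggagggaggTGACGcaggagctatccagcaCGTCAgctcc
The Pcsk1 promoter holds the full palindrome TGACGTCA, which begins 78 bases before the start and contains the core on both strands, and a further core that begins 50 bases before the start. The palindrome is present in 1.79% and the core in 20.8% of 32851 mouse promoters of the same length. Pcsk2 holds 1 core, Scg5 holds 3 and Pcsk1n none. Pcsk2 also differs from Pcsk1 in base composition: its stretch has 36 CG pairs and 7 GC boxes (GGGCGG on either strand), against 13 CG pairs and 1 GC box in Pcsk1. The median over all promoters is 7 CG pairs. Many CG pairs are not particular to Pcsk2 among the members. Pam has 35 at its start 1 and 38 at its start 2, and Furin has 7 at its start 1 and 51 at its start 2. A GC box is found in 35.7% of all promoters. These matches describe letters and say nothing of which factor binds.

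Levels are in RPKM, which divides reads by gene length and by the reads of the library, so levels of different genes can be compared per length. Detection here means 10 RPKM or more, and a value of 0 is given as listed at 0. The estimated depth was 891524 to 3015457 reads per cell, with a median of 1814553. All cells had the profile of neurons, with 7 to 10 of 10 neuronal markers per cell and a summed level of 983 to 1785 RPKM. Pituitary endocrine cells also make these enzymes, and 6 of their 7 markers were listed at 0 in all cells. The exception was Gh at 15.2 RPKM in cell 4, so the summed level of that list was 0 to 15.2 RPKM. The summed level of microglial markers did not exceed 0.18 RPKM, that of astrocyte markers 39.8 RPKM, of endothelial markers 26.7 RPKM and of tanycyte markers 64.2 RPKM, and Gfap, Cldn5 and Rax were listed at 0. Oligodendrocyte markers summed to 0 to 109 RPKM, with Mog, Mobp and Mag listed at 0. The 6 cells numbered 1, 3, 5, 6, 29 and 31 stand apart with the nuclear RNA Malat1 under 20 RPKM, and the shares of cells with a convertase are given with and without them. Cell numbers follow the labels.

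Of the 8 genes, 3 formed a constant core of the machinery. Cpe, Scg5 and Pcsk1n were at 10 RPKM or more in all 25 cells (100%, exact Clopper-Pearson 95% interval 86.3 to 100%, counting error over cells only), and so were 2.6% of all symbols. Pam was detected in 24 cells (96%, interval 79.6 to 99.9%), where 3.74% of all symbols were in 24 cells or more. The convertases were patchy, with Pcsk2 in 12 cells (48%, interval 27.8 to 68.7%) and Pcsk1 in 6 (24%, interval 9.36 to 45.1%). The constitutive enzymes were rare, with Furin in 3 cells (12%, interval 2.55 to 31.2%) and Cpd in 1 (4%, interval 0.101 to 20.4%). At least 1 cell with 10 RPKM or more was found for 42.7% of all symbols.

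**Figure D1:**
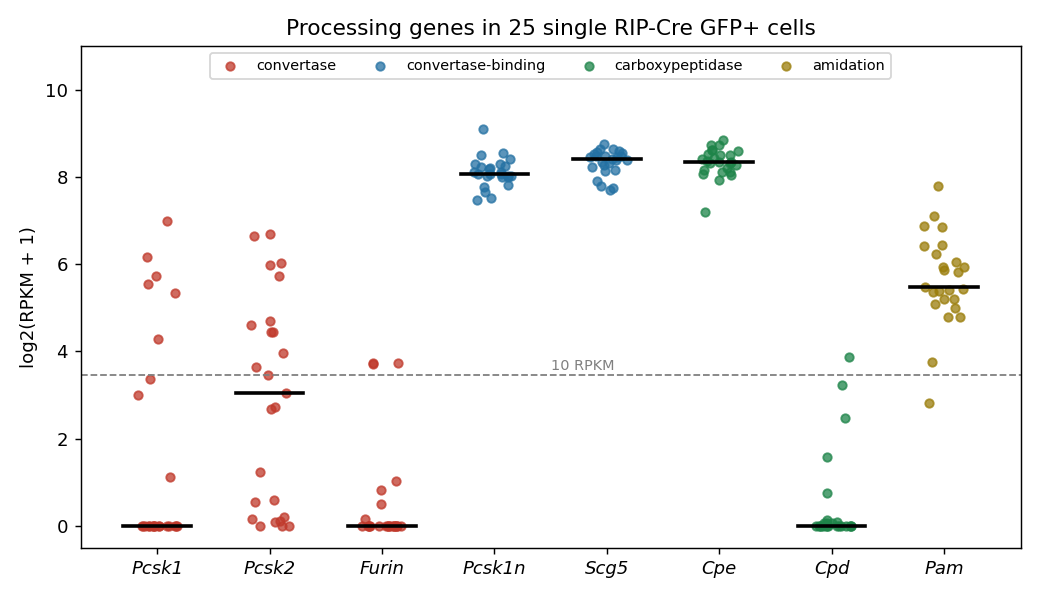
Level of each of the 8 genes in each of 25 cells, as log2(RPKM + 1); each point is a cell, black bars are medians over cells and the dashed line is 10 RPKM. Pcsk1n, Scg5 and Cpe lie high and close together in all 25 cells, Pam is spread below them, and Pcsk1, Pcsk2, Furin and Cpd fall to 0 in some cells.

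The gene for carboxypeptidase E was among the most abundant transcripts of most cells. Cpe, on chromosome 8 from 64592542 to 64693054 (GRCm38, minus strand), ranged from 146 RPKM in cell 43 to 459 RPKM in cell 12, with a median of 324 RPKM. Cell 43 stood below the others, since the lower quartile was already 284 RPKM. Ranked by level within each cell, Cpe took places 30 to 936, with a median of 109 and place 936 in cell 43. Its relative Cpd, which encodes a membrane-bound carboxypeptidase of the trans-Golgi network, was highest in cell 25 (13.6 RPKM), followed by cell 29 (8.35 RPKM) and cell 10 (4.56 RPKM). In the other cells it did not exceed 1.99 RPKM, and it was listed at 0 in 15. Cpe was above Cpd in 25 of 25 cells. At the median depth, 10 RPKM of the long Cpd transcript is 151 reads and 3 reads give 0.198 RPKM. The lowest values above 0, from 0.05 to 0.1 RPKM in cells 8, 11, 13, 15 and 17, are 1 to 3 estimated reads and lie at that limit of counting.

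Of the genes for the convertase-binding proteins, Scg5 was as abundant as Cpe and Pcsk1n was somewhat lower. Scg5, on chromosome 2 from 113776362 to 113829121, ranged from 208 RPKM in cell 29 to 431 RPKM in cell 25, with a median of 340 RPKM. Pcsk1n, on the X chromosome from 7919822 to 7924410, ranged from 178 RPKM in cell 11 to 550 RPKM in cell 9, with a median of 268 RPKM. Scg5 was above Cpe in 13 of 25 cells, with a median log2 difference of 0.04 (SD over cells 0.33), so these neighbours did not differ beyond their spread. Cpe was above Pcsk1n in 20 cells by a median of 0.32 on the log2 scale (SD 0.49), and Scg5 was above Pcsk1n in 21 cells by a median of 0.27 (SD 0.36). Pcsk1n was thus the lowest of the 3 in most cells, by median differences smaller than their SD over cells. All 3 were above Pam in all 25 cells. Of the exon bases of Pcsk1n, 6.16% overlap the oppositely oriented gene Eras, and reads there cannot be assigned to a strand in this protocol.

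The narrow range of these 3 genes was shared by other abundant genes. The coefficient of variation over cells was 0.183 for Scg5, 0.204 for Cpe and 0.262 for Pcsk1n. Over the 367 genes that averaged 200 RPKM or more it had a median of 0.282 and quartiles of 0.232 and 0.341, so Pcsk1n lay inside the quartiles and Scg5 and Cpe below them. The estimated coverage of these genes is given beside their range. It had a median of 0.607 reads per base for Cpe, 0.625 for Scg5 and 0.496 for Pcsk1n, against 0.547 to 0.935 per cell, with a median of 0.815, for the mean of the 50 highest genes of 0.5 kb or more. No value in the table exceeded 1577 RPKM. Whether duplicate reads were removed is not given in the sources used here, and its part in the narrow range was not tested.

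**Figure D2:**
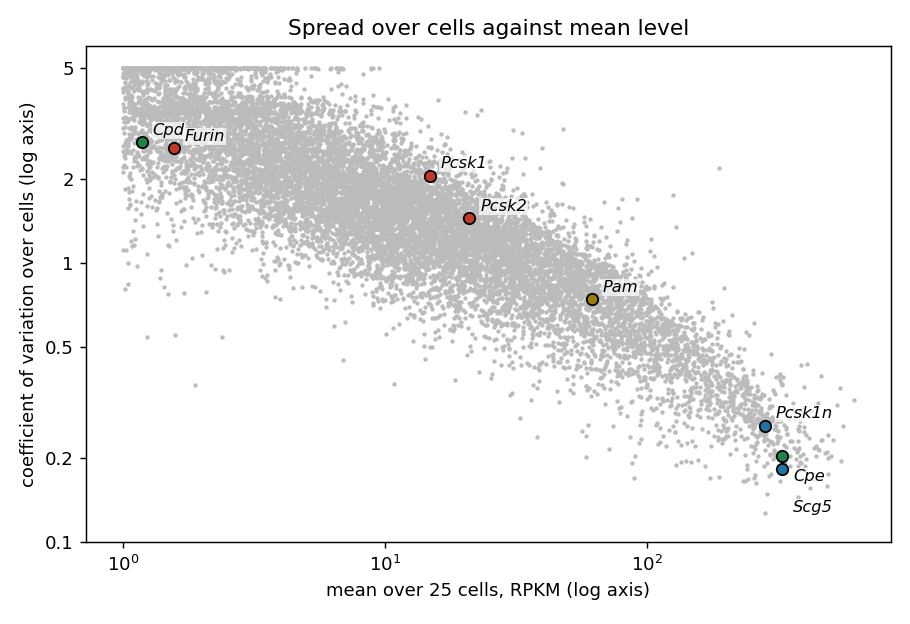
Coefficient of variation over 25 cells against the mean level in RPKM, both on log axes, for genes that averaged 1 RPKM or more; the 8 genes are coloured by role and other genes are grey. Scg5 (0.183), Cpe (0.204) and Pcsk1n (0.262) sit at the abundant end of the general trend, and Pcsk1 (2.06) lies in the upper part of the genes of like mean.

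Pam, the gene for the amidating enzyme, was present in nearly every cell but at levels that varied widely. It lies on chromosome 1 from 97795114 to 98095646, and 1.58% of its exon bases are shared with B230216N24Rik on the same strand. Pam ranged from 5.99 RPKM in cell 34 to 219 RPKM in cell 25, with a median of 43.4 RPKM and quartiles of 35.9 and 74.2 RPKM. The highest value was 36.6 times the lowest, against 3.13 times for Cpe, 3.1 times for Pcsk1n and 2.07 times for Scg5. Its coefficient of variation of 0.744 was close to the median of 0.806 over the 2182 genes that averaged 30 to 100 RPKM. For this long transcript, 10 RPKM is 216 reads at the median depth and 106 reads in the shallowest cell. Cell 25, the highest for Pam, was also the highest for Scg5 and Cpd.

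Pcsk2 was the more widespread of the neuroendocrine convertase genes. It lies on chromosome 2 from 143546156 to 143816285. The highest levels were 102 RPKM (cell 31), 98.7 RPKM (cell 7), 63.7 RPKM (cell 9), 61.6 RPKM (cell 6) and 52.2 RPKM (cell 1), and the other 7 cells that reached the level lay between 10.0 and 24.8 RPKM. Cell 14 lay at the level itself, with 10.01 RPKM. In 10 further cells Pcsk2 was above 0 and below 10 RPKM, and it was listed at 0 in cells 3, 5 and 43. Without the 6 cells low in Malat1 the share was 42.1%, against 48% over all cells. The median over all cells was 7.3 RPKM, which made Pcsk2 the member most evenly split by the level. Its coefficient of variation was 1.449. This lay inside the quartiles of 1.025 and 1.619 over the 3243 genes that averaged 10 to 30 RPKM, so its spread was usual for such genes. Exons of the antisense genes Pcsk2os1 and Pcsk2os2 cover 4.54% of its exon bases, and reads there cannot be assigned to a strand.

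Pcsk1 was listed at 0 in most cells and well above 10 RPKM in a few. It lies on chromosome 13 from 75089826 to 75134861. Cell 29 had 126 RPKM, cell 27 had 70.4 RPKM, cell 32 had 52.3 RPKM, cell 31 had 45.8 RPKM, cell 2 had 39.4 RPKM and cell 1 had 18.4 RPKM. In 3 cells the level lay between 0 and 10 RPKM, with cell 13 at 9.28 RPKM, cell 10 at 6.98 RPKM and cell 7 at 1.18 RPKM. The other 16 cells were listed at 0, where 3 reads would give 0.178 RPKM in the deepest cell and 0.601 RPKM in the shallowest. Its coefficient of variation was 2.06, against a median of 1.29 over the 3243 genes that averaged 10 to 30 RPKM, among which Pcsk1 took place 3006 from the lowest. Of the 6 Pcsk1 cells, 3 (1, 29 and 31) were low in Malat1, and without the 6 cells low in Malat1 the share was 15.8%, against 24% over all cells. Whether low Malat1 and Pcsk1 are linked was not tested.

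Furin, the ubiquitous convertase, passed the level in 3 cells, with 12.4 RPKM in cell 32, 12.2 RPKM in cell 11 and 12.1 RPKM in cell 17. In the other cells it did not exceed 1.03 RPKM, and it was listed at 0 in 18. These 3 values are 162, 339 and 235 estimated reads, so they do not rest on a few reads. An oppositely oriented gene, Gm44851, covers 1.29% of its exon bases. None of the 3 cells had Pcsk2 at 10 RPKM or more, and cell 32 alone among them had Pcsk1. The absence of Pcsk2 depends on the level chosen. Cells 11 and 17 (Pcsk2 of 7.3 and 5.65 RPKM) would pass a level of 5 RPKM, whereas cell 32 (0.08 RPKM) would not. Pcsk2 was detected in only 48% of all cells, so no exclusion between Furin and Pcsk2 is drawn from these cells.

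**Figure D3:**
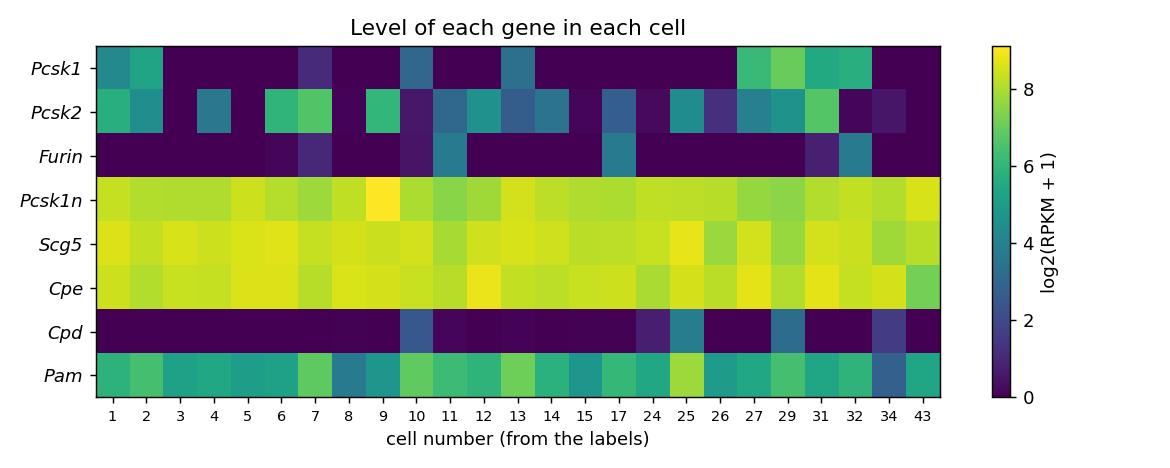
Level of the 8 genes (rows) in the 25 cells (columns, by cell number), as log2(RPKM + 1) in colour. The rows of Pcsk1n, Scg5 and Cpe are bright in all columns, whereas Pcsk1 is bright in cells 1, 2, 27, 29, 31 and 32 and Furin shows faintly in cells 11, 17 and 32.

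The convertases divided the 25 cells into 4 sets. Both Pcsk1 and Pcsk2 were at 10 RPKM or more in 5 cells (1, 2, 27, 29 and 31), Pcsk2 without Pcsk1 in 7 (4, 6, 7, 9, 12, 14 and 25), and Pcsk1 without Pcsk2 in cell 32. The remaining 12 cells (48%, interval 27.8 to 68.7%) had neither, and in 3 of them, cells 3, 5 and 43, both genes were listed at 0. Pcsk2 was thus found in 5 of 6 Pcsk1 cells (83.3%), against 48% of all cells. Without the cells low in Malat1 it was in 2 of 3 (66.7%), against 42.1%. With 5 RPKM as the level for both genes the share was 75%, against 60% of all cells. At 20 RPKM it was 60%, against 36%. The sets overlapped in depth, at 1208664 to 2696872 reads in the cells with both genes and 1110186 to 3015457 reads in the cells with neither. Genes at 10 RPKM or more had a median of 4831 in the former and 4980 in the latter. Cells 3, 5 and 43 had fewer, at 4350, 4515 and 3843, against a median of 4896 over all cells. Cell 6, which had Pcsk2, was also low at 4337. The part of this in the missing convertases was not tested. Within the 5 cells with both, Pcsk2 was 0.196 to 2.83 times as high as Pcsk1, lowest in cell 29 and highest in cell 1.

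**Figure D4:**
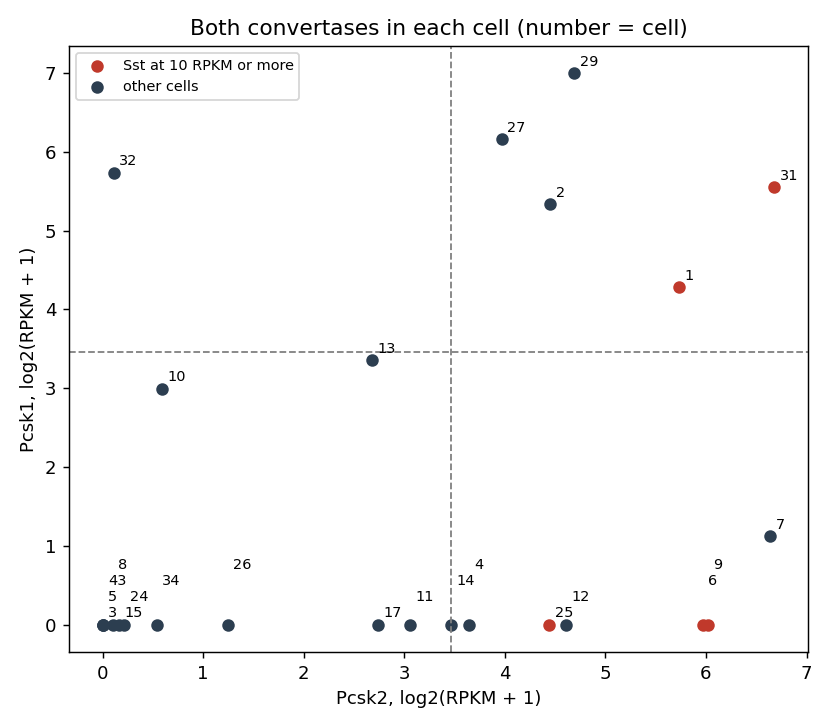
Pcsk1 against Pcsk2 in each cell, both as log2(RPKM + 1), with dashed lines at 10 RPKM, cell numbers beside the points (stacked where points crowd at 0) and cells with Sst at 10 RPKM or more in red. In the plot 5 cells lie above both lines, cell 32 lies above the Pcsk1 line alone, and all 5 Sst cells lie right of the Pcsk2 line.

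Transcripts of the binding proteins exceeded those of the convertases in every cell. Pcsk1n was above Pcsk1 and Scg5 above Pcsk2 in 25 of 25 cells. In the 6 cells with Pcsk1 at 10 RPKM or more, Pcsk1n was 1.43 times (cell 29) to 17.0 times (cell 1) as high, with a median of 5.89 times. In the 12 cells with Pcsk2 at 10 RPKM or more, Scg5 was 3.21 times (cell 7) to 35 times (cell 14) as high, with a median of 11.6 times. These ratios describe the cells in which the convertase passed the level, and they compare transcripts per length, not proteins. Cell 43, with both convertases listed at 0, had Pcsk1n at 372 RPKM and Scg5 at 280 RPKM.

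Most pairs of members had weak correlations over the cells. Over 28 pairs, Pearson's r of log2(RPKM + 1) had a median of -0.0048 and ranged from -0.252 (Pcsk1n with Furin) to 0.431 (Scg5 with Cpe, Spearman's rho 0.602), with n = 25 cells that share 1 pool of mice and the scaling by total reads. For Scg5 with Cpe, r was 0.399 without cell 29 and 0.519 without cell 34, the extremes over leaving out each cell. Pcsk2 with Pam followed at 0.369, Pcsk1n with Scg5 at 0.352, Cpd with Pam at 0.34, Pcsk1 with Pam at 0.319 and Pcsk1 with Pcsk2 at 0.295. Pcsk1n and Pcsk1, an inhibitor and its enzyme, had r of -0.244. The abundant genes also moved with properties of the libraries: Spearman's rho with the summed RPKM of the cell was 0.584 for Scg5, 0.572 for Cpe and 0.457 for Pcsk1n, and with estimated depth -0.581 for Pcsk1n. The part of these properties in the correlations was not tested.

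The genes whose pattern over the 25 cells was most like each member were sought among the genes detected in 13 cells or more, 4180 in all or 13.5% of symbols. Pcsk1n was most like Sepw1, a selenoprotein gene (r = 0.84), Cfl1, the gene for the actin-severing protein cofilin (0.83), and Ly6h (0.82). Cpe was most like Mien1 (0.80), Fam195b (0.79) and Mlf2 (0.77), and Scg5 like Ap1s1, which encodes a subunit of a clathrin adaptor of the trans-Golgi network (0.75), Psma7 of the proteasome (0.67) and Pnck (0.66). Pam was most like Bub3 (0.70), Tmed2, which encodes a cargo protein of early secretory vesicles (0.67), and Gskip (0.67). Likeness was lower for the patchy members. It was 0.62 for Pcsk2 with Ifrd1, 0.60 with Gpkow and 0.57 with Nsun2, and 0.57 for Pcsk1 with Ddah1 and 0.56 with Nub1. For Cpd it was 0.50 with Vgf, Ctsb and Nomo1, and for Furin 0.47 with Lgi1, 0.44 with Tfe3 and 0.44 with Ccrn4l. The median r over all genes compared lay between -0.046 for Pcsk1n and 0.055 for Furin. Spearman's rho for the first gene named with each member was 0.608 for Pcsk1, 0.550 for Pcsk2, 0.725 for Pcsk1n, 0.712 for Scg5, 0.602 for Cpe, 0.347 for Cpd, 0.585 for Pam and 0.402 for Furin, and for Cpd with Ctsb it was 0.149. These are among the highest of 4180 values over 25 cells that share 1 pool and the scaling by total reads, so they are descriptions.

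Prohormone genes were examined as substrates of these enzymes. Of 24 listed, 18 were at 10 RPKM or more in at least 1 cell, as were 42.7% of all symbols. At least 1 was held by 24 of 25 cells, with a median of 4 per cell and at most 6. Each of those 24 cells also had Cpe, Scg5 and Pcsk1n, as did all cells. Pcsk1 or Pcsk2 was detected in 13 of the 24, and the other 11 (45.8%) had neither at 10 RPKM, a share of 29.2% when the level was 5 RPKM, 54.5% at 20 RPKM, and 52.6% without the cells low in Malat1. Of the cells with neither, 8 held a prohormone at 100 RPKM or more. Cell 24 had Penk, the proenkephalin gene, at 393 RPKM with Pcsk2 at 0.16 RPKM. Cell 3 had Penk at 317 RPKM with both convertases listed at 0. Cell 34 had Npy at 208 RPKM with Pcsk2 at 0.45 RPKM. Conversely, cell 5 held no listed prohormone and no convertase, yet had Cpe at 391 RPKM, Scg5 at 385 RPKM, Pcsk1n at 339 RPKM and Pam at 33.0 RPKM.

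The convertases were unevenly spread over the peptide genes. Pcsk2 was detected in 5 of 5 cells with Sst, the somatostatin gene, at 20.7 to 102 RPKM (median 61.6 RPKM), and in 7 of the other 20 cells, where the median was 3.39 RPKM. Of these Sst cells 3 were low in Malat1, and both of the others, cells 9 and 25, had Pcsk2. Pcsk1 was in 2 of the 5, cells 1 and 31, both low in Malat1. The 7 cells with Lhx1, a transcription factor gene, differed from this: Pcsk1 was listed at 0 in all 7, and Pcsk2 reached the level in cell 12 alone, at 23.4 RPKM, with a median of 0.12 RPKM. In the 7 cells with Tbx19 Pcsk1 was detected in 1 and Pcsk2 in 2, and in the 10 cells with Glp1r in 3 and 6. These sets were formed on measured genes and picked with their values known, so the differences were not tested.

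Pomc, whose product Pcsk1 and Pcsk2 are known to cut in sequence, was detected in 10 cells. Of these, 2 had Pcsk1 (20%), 4 had Pcsk2 (40%) and 5 had neither. Over all 25 cells the shares were 24%, 48% and 48%, so the Pomc cells lay near them. Among the cells with neither, cell 13 had Pcsk1 at 9.28 RPKM and Pcsk2 at 5.41 RPKM, and cell 10 had Pcsk1 at 6.98 RPKM. With 5 RPKM as the level for Pomc and both convertases, 36.4% of Pomc cells had Pcsk1 and 54.5% had Pcsk2. The cell with the most Pomc, cell 29 at 481 RPKM, also had the most Pcsk1, at 126 RPKM, with Pcsk2 at 24.8 RPKM. The next, cell 43 at 232 RPKM, had both convertases listed at 0. Over the other peptide genes found in 9 or 10 cells, Pcsk1 was in 2 of 10 Cartpt cells, 1 of 10 Penk cells, 2 of 10 Pnoc cells and 2 of 9 Agrp cells, and Pcsk2 in 5, 5, 4 and 4 of them. With 24% and 48% over all cells, no link to a peptide gene is drawn from these counts. Pcsk1 was in 3 of 5 cells with Pthlh, the gene for parathyroid hormone-related protein, and in 2 of 5 with Gal, the galanin gene. Leaving out the cells low in Malat1 lowered most of these shares. For Pcsk1 they were then 33.3% of Pthlh cells (60% with them), 33.3% of Gal cells (40%), 11.1% of Pomc cells (20%), 12.5% of Cartpt and of Pnoc cells (20% each), and 0% of Penk cells (10%) and Agrp cells (22.2%). For Pcsk2 they were 33.3% of Pomc cells (40%), 37.5% of Cartpt cells (50%), 37.5% of Pnoc cells (40%), 20% of Agrp cells (44.4%) and 50% of Penk cells (50%). Of the 13 prohormones that give amidated peptides, 8 were detected in at least 1 cell, as were 42.7% of all symbols. They were found in 15 cells in all, and 14 of these cells had Pam, as did 24 of all 25 cells. The exception was cell 34, with Npy at 208 RPKM and the lowest Pam, at 5.99 RPKM.

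**Figure D5:**
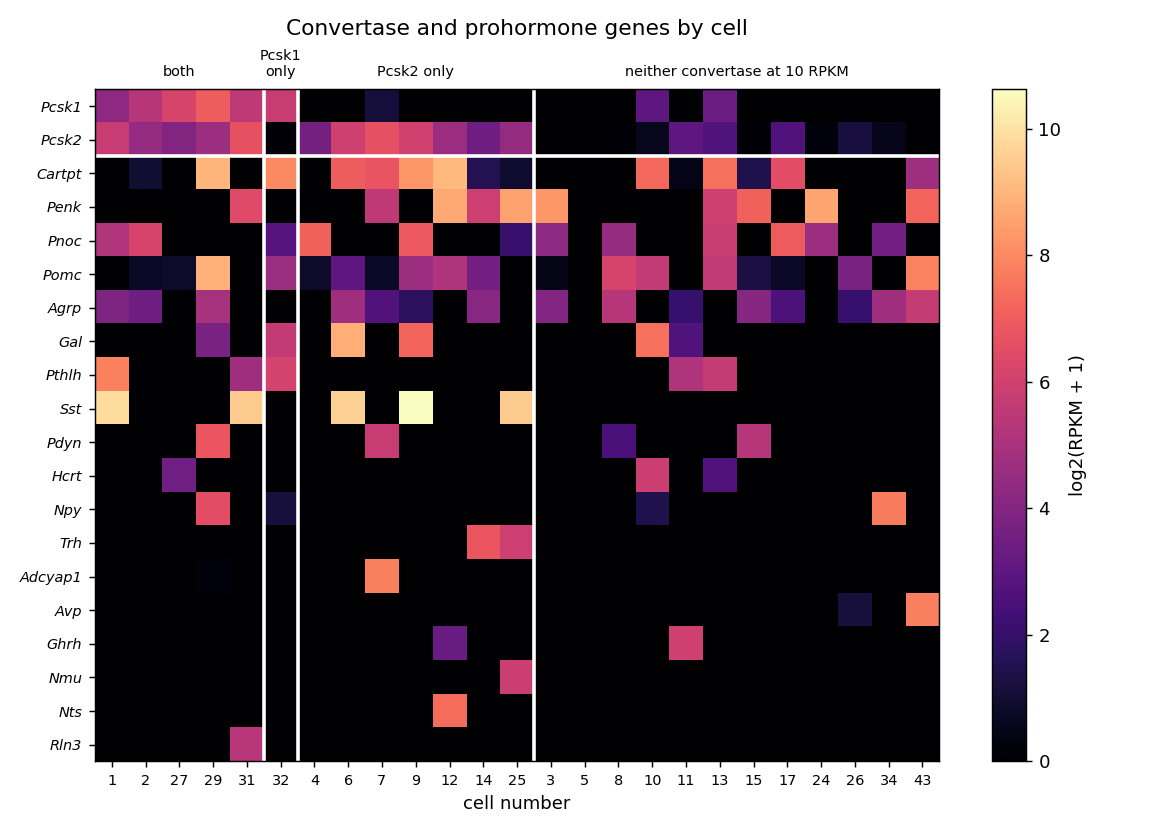
Pcsk1, Pcsk2 and the 18 detected prohormone genes (rows) in 25 cells (columns), as log2(RPKM + 1), with cells set out by which convertase was at 10 RPKM or more. Sst is bright in cells 1, 6, 9, 25 and 31, all with Pcsk2, while Penk, Pomc and Cartpt are bright on both sides of the line that separates the 12 cells with neither convertase.

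Of 6 other convertase genes listed, 1 (16.7%) was in 13 cells or more, close to the 13.5% of all symbols. This was Mbtps1, the site-1 protease gene, in 14 cells (median 10.8 RPKM, highest 64.0 RPKM). Pcsk4 was detected in 7 cells, Pcsk7 in 5 and Pcsk6 in 3, each with a median of 0, and Pcsk5 in none (highest 4.78 RPKM). Of 6 further carboxypeptidase genes related to Cpe, none was in 13 cells, and 4 (66.7%) were in no cell, against 57.3% of all symbols. Cpxm1 was in 2 cells, Cpm in 1, and Cpn1, Cpz and Aebp1 were listed at 0 throughout, with Cpxm2 at 7.67 RPKM or less. Of 7 other peptidase genes listed, 4 (57.1%) were in 13 cells or more: Ctsd was in 25 cells (median 268 RPKM), Ctsb in 25 (139 RPKM) and Ctsl, whose product can also cut prohormones in granules, in 24 (142 RPKM). Ctsh, another candidate peptidase, did not exceed 0.43 RPKM. Rnpep, which encodes an aminopeptidase that removes basic residues from the front end, was in 21 cells (72.8 RPKM), Prep in 5 and Prcp in 2.

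Genes that finish the peptide ends or serve Pam differed among themselves. The glutaminyl cyclase gene Qpct was in 20 cells (median 76.1 RPKM) and Qpctl in 14 (19.8 RPKM). The amidating enzyme needs ascorbate and copper. Cyb561, the granule cytochrome that renews ascorbate, was in 21 cells (92.6 RPKM), and the copper chaperone gene Atox1 in 25 (155 RPKM). The ascorbate transporter gene Slc23a2 was in 10 cells, the copper importer gene Slc31a1 in 7, the copper pump gene Atp7a in 2 and Slc23a1 in none, so 2 of the 6 supply genes (33.3%) were in 13 cells or more, against 13.5% of all symbols.

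Genes of the granule that houses the enzymes were detected in most cells. All 5 granin genes listed were in 13 cells or more, as were 13.5% of all symbols: Scg2 (median 374 RPKM), Chga (218 RPKM) and Chgb (206 RPKM) in 25, Scg3 (173 RPKM) in 24 and Vgf (21.2 RPKM) in 14. The 8 genes listed for the proton pump that acidifies granules, which are not all of its genes, were too, 7 of them in 25 cells and Atp6ap1 in 24, with a median over the 8 of 177 RPKM. Of 9 genes for granule formation, 8 reached 13 cells, led by Rab2a in 25, Ptprn in 24, Ica1 in 20, Pick1 in 16, Hid1 in 15 and Ptprn2 in 14. Cadps2 was in 4.

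Of 6 transcription factor genes linked to the members, 2 were in 13 cells or more, against 13.5% of all symbols. Egr1 was in 25 cells (median 186 RPKM) and Stat3 in 13 (13.0 RPKM). Insm1 was in 5, Rest, whose product represses neuronal secretory genes, in 1, and Creb1 in none (highest 5.66 RPKM). Nhlh2, whose product is known to activate Pcsk1 with Stat3, was in cell 29 alone, at 22.2 RPKM, the cell with the highest Pcsk1, and Stat3 was highest there too, at 154 RPKM. Cell 29 also had the most genes at 10 RPKM or more, 6183 against a median of 4896, and this observation rests on 1 cell. Of 11 genes for furin substrates, none was in 13 cells or more, against 13.5% of all symbols, and 3 (27.3%) were in no cell, against 57.3%. Lrp1 was in 11 cells, Insr in 9, Adam10 in 8, Igf1r and Bdnf in 4 each, and Notch1, Notch2 and Tgfb1 in none. The furin inhibitor genes Gbp2 and Gbp5 were in none, at 0.88 RPKM or less.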

How the data were processed

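The values the authors deposited, in 1 table, were read as RPKM although the table is named as gene counts: they hold decimals, and low values multiplied by gene length fall on steps of whole reads. Per the labels' protocols, frozen single cells were turned into Smart-Seq2 libraries with Nextera XT, and these carry no molecular identifiers and mark no strand. Per the submitters' processing notes, TopHat2 2.0.14, Picard 2.5.0, SAMtools 0.1.19, featureCounts 1.4.6 and bcl2fastq were used, with the builds mm10 and GRCm38; which step each served, the annotation and the handling of duplicate reads are not stated there.

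All 25 columns were matched to the labels. Of 33082 rows, 26 with names turned into date numbers were left out, and of each of 755 repeated symbols the row with most signal was used. Exon lengths came from GENCODE M21 (22754 symbols). Value times length summed to 1.38 to 1.47 times 1000000 per cell, where matching lengths would give 1, so read numbers and reads per base are estimates. The depth estimator was tested on simulated data made with the same exon lengths that it uses, so the test does not cover lengths that fail to match. Shares carry exact Clopper-Pearson 95% intervals. At a fixed RPKM a longer gene has more reads behind it. Depth was estimated from the spacing of low values. Python 3.11.15, numpy 2.4.6, pandas 2.3.3 and scipy 1.17.1 were used.

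The members, the lists and the named genes were chosen with earlier results of these data known. Named were all 8 members, the 3 genes most like each, and from each list up to 6 genes in most cells and those in none; a few genes that meet this rule are not reported here. Genes and cells outside that rule, such as the Lhx1 or Tbx19 cells, were picked with their values known.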

Additional observations from a re-analysis of the deposited data

How the results depend on the processing

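Other detection levels, Spearman's rho, another pseudocount, rescaling, summed rows of repeated symbols and leaving out cells gave 366 values, and 344 stayed within their spread or counting interval. These limits are wide and held all 165 correlations, so that count is not evidence of stability. Within them, rescaling took the Pcsk2 median from 7.3 to 20.4. It also raised detection from 48 to 60% for Pcsk2 and from 24 to 32% for Pcsk1. Without the cells low in Malat1, r of Pcsk1 with Pcsk2 fell from 0.295 to 0.044. At 20 RPKM, Cpd and Furin were detected in 0% of cells, and the count of genes in 13 cells or more came to 0 for other convertases, 1 for glutaminyl cyclases, 5 for granule formation and 1 for transcription factors. At 5 RPKM, Pam was in 100% of cells and 1 furin substrate gene reached 13 cells. Rescaling each cell to a sum of 1000000 moved the medians to 885 for Scg5, 837 for Cpe, 691 for Pcsk1n and 114 for Pam by construction, put Pam in 100% of cells and left 0 pairs of members with r at or above 0.4, against 1 as reported. That count was 2 by Spearman's rho, 2 without the 6 cells low in Malat1 and 3 without the shallowest cell; the cause was not tested. With cells in which both genes were at 0 left out, an alternative chosen after seeing the data, Pcsk1 was above Furin in 75% of cells. Leaving out each cell in turn for Scg5 with Cpe was also chosen then. Without the cells low in Malat1, Pcsk1 was in 0% of the Sst, Penk and Agrp cells that remained, and Pcsk2 in 0% of the Pthlh cells. No paired analysis was possible because there is 1 group of cells and no label pairs them. At the median depth 3 reads give 0.139 RPKM for Pam and 1.05 RPKM for Scg5, and read numbers cover counting error only.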
